A study of Homo sapiens with 8 samples.

Results

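The genes described here are 10 of the 60558 genes in the expression files, taken by gene name. They are the cyclooxygenases PTGS1 and PTGS2, the terminal synthases PTGES, PTGIS and PTGDS, the prostaglandin E2 receptor genes PTGER1, PTGER2, PTGER3 and PTGER4, and HPGD, which inactivates prostaglandins. Of these 10 genes, 9 were above 0 in at least 1 library, 7 were above 0 in all 8 libraries, and 7 reached the level needed for a test.

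Prostaglandins are lipid mediators made from arachidonic acid that phospholipases free from membranes. A cyclooxygenase turns arachidonic acid into prostaglandin H2, which terminal synthases convert into prostaglandin E2, prostacyclin, prostaglandin D2 and other products. PTGS1 is known as the constitutive cyclooxygenase and PTGS2 as the form induced by cytokines, and in the intestine prostaglandin E2 is known for its roles in inflammation, secretion and repair of the mucosa.

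Flat (2D) cultures, which the study calls human intestinal epithelial cells (hIECs), were derived from H9, a widely used human embryonic stem cell line. Their poly-A RNA was sequenced. The 4 groups were normal hIECs, normal hIECs with PM10 (inhalable airborne particulate matter), inflamed hIECs and inflamed hIECs with PM10, each with 2 libraries. By the study's methods, inflamed cultures were kept with IFNγ and TNFα at 50 ng/ml each over 10 days and PM10 at 100 μg/ml was present during the final 7 days, whereas the sample records state 10 days for every group. All libraries share this 1 line, no genetic change is stated for any group, and nothing states whether the 2 libraries of a group came from separate cultures, so p-values measure only the spread between libraries, which may be technical.

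Levels are given as FPKM (fragments counted per kilobase of a transcript and scaled to the size of the library), a unit scaled to transcript length, so levels of different genes can be set side by side. The FPKM values summed to between 403353.7 and 468392.3 per library, and between 16547 and 18926 genes were above 0. No read counts were used, so the depth behind a value is unknown, and the lowest value above 0 was between 0.164 and 0.228 FPKM. Changes are differences of log2(FPKM + 1), a scale that understates the change of weakly expressed genes, and a gene was called when limma, fitted over 14206 genes, gave an adjusted p-value under 0.05.

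The name hIECs follows the study, and this labelled cell type was compared with marker genes. The study itself reported CDX2, VIL1, MUC2, LYZ and CHGA in its 2D cultures by PCR and staining. Of 16 intestinal epithelial markers, 10 were listed at 0 in all 8 libraries, among them CDX2, VIL1, MUC2, LYZ and CHGA, and CDH1 was above 0 in 1 library. Only KRT8, KRT18 and LGR5 of this list reached 1 FPKM in at least 2 libraries, and nearly all of its sum was KRT8 and KRT18. All 11 mesenchymal markers reached that level, and their FPKM summed to between 5096.7 and 5111.7 in normal hIECs, 4424.3 and 4449.1 with PM10, 5791.1 and 5864.0 in inflamed hIECs and 5116.1 and 5133.5 in inflamed hIECs with PM10. The summed epithelial markers were between 642.5 and 651.8, 599.7 and 636.8, 351.4 and 356.5, and 293.4 and 312.6 in the same order of groups. Single markers did not all follow these sums. LGR5 lay between 2.01 and 2.63 FPKM without cytokines and between 5.27 and 8.28 FPKM with them, and COL3A1, COL1A2, PDGFRA, PDGFRB and DCN were lower in both inflamed libraries than in either normal library while the mesenchymal sum was higher. Of 11 haematopoietic markers 8 were listed at 0 throughout and their sum did not exceed 1.83 FPKM, and 4 of 5 endothelial markers were listed at 0 throughout. The sum of 6 neuronal markers lay between 194.2 and 220.2 FPKM without cytokines and between 113.4 and 132.2 with cytokines. These marker sums differed between groups alongside the prostaglandin genes, and their part in the results was not tested. In bulk RNA, fewer cells of a type and less RNA per cell cannot be told apart.

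In normal hIECs the synthases PTGIS and PTGES and the receptor PTGER3 were the most abundant of the 10 genes. IFNγ and TNFα raised PTGS2 and PTGES and lowered PTGER3, and they raised the receptor PTGER4 to a smaller extent. PM10 lowered PTGS2, PTGES, PTGIS and PTGER3 in inflamed hIECs, while in normal hIECs only PTGER3 was called, and it was higher with PM10. The plot of levels by library shows these patterns gene by gene.

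**Figure D1:**
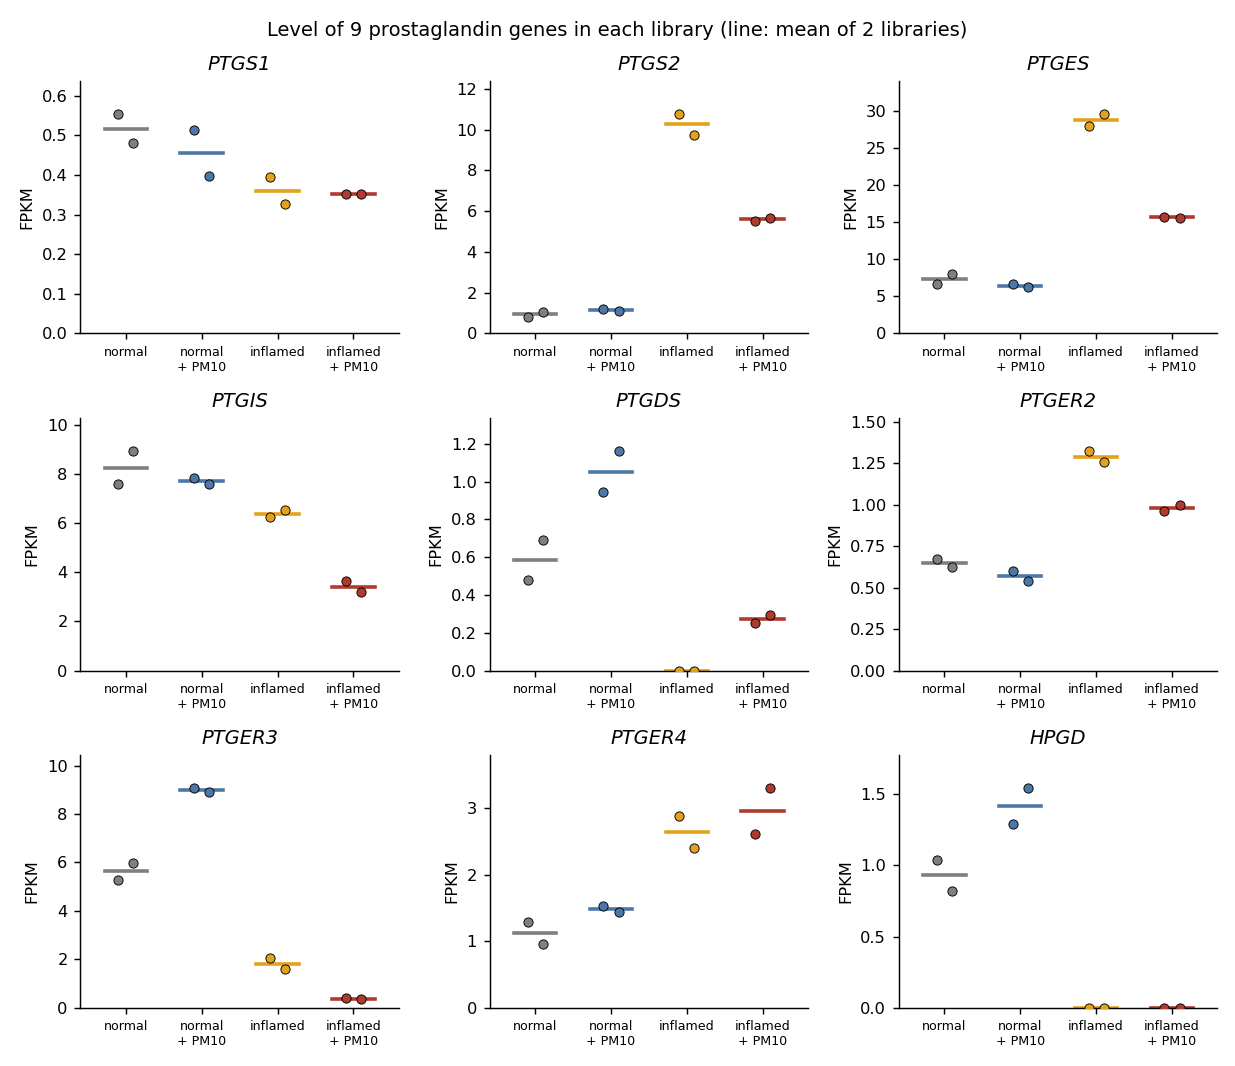
FPKM (vertical axes, each starting at 0 on its own scale) of the 9 prostaglandin genes above 0 in any library, for the 4 groups. Points are single libraries and lines are means of 2 libraries. PTGS2 and PTGES were highest in inflamed hIECs at 9.74 to 10.8 and 28.04 to 29.6 FPKM, PTGER3 was highest in normal hIECs with PM10 at 8.91 to 9.07, and HPGD was listed at 0 in all 4 libraries with cytokines.

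The 250 bases before the transcription start of the PTGS2, PTGES and PTGER4 genes are shown because these 3 genes rose with cytokines and have a RefSeq promoter window that holds no annotated UTR base. RefSeq windows were at hand for 8 of the 10 genes, and PTGER3 and PTGIS had no entry. The sequences are from RefSeq on GRCh38.p14 in the direction of transcription, and capitals mark matches to the motifs searched. The PTGS2 window is chr1:186680424-186680673 on the minus strand, inside the annotated span of PTGS2, which reaches further upstream. The PTGES window is chr9:129753043-129753292 on the minus strand and the PTGER4 window is chr5:40679665-40679914 on the plus strand, both just outside the annotated gene.
PTGS2: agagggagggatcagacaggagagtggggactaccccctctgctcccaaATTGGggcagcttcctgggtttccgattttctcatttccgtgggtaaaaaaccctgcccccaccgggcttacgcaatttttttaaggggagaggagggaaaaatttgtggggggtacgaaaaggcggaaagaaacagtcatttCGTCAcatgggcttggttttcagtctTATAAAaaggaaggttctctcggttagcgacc
PTGES: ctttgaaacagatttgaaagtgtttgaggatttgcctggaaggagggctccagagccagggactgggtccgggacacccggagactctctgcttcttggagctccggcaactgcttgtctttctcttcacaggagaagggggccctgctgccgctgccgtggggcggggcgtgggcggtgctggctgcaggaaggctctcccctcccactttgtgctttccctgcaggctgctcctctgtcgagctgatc
PTGER4: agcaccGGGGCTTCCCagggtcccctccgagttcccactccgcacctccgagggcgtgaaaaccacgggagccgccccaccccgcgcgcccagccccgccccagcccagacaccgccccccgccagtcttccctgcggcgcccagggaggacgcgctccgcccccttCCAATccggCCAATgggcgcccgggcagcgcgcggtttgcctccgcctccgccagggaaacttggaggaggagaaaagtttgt
The motifs were TATAAA on the strand of the gene, and TGACG (the core of the cAMP response element), CCAAT and the NF-kB consensus on both strands. They occur in 6.8%, 21.2%, 32.0% and 10.0% of the 35116 RefSeq windows of this length. Counting back from the base before the start, PTGS2 had TATAAA from position -32, a TGACG match from -58 and a CCAAT match from -201. The PTGES window held none of the 4 motifs. PTGER4 held CCAAT from -83 and from -74 and the NF-kB consensus from -244. No matches overlapped each other, and a match describes letters only.

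The first question was how the genes that make prostaglandins differed with cytokines. PTGS2 (ENSG00000073756, chr1:186671791-186680922, minus strand) had 0.816 and 1.07 FPKM in the normal libraries and 10.8 and 9.74 FPKM in the inflamed libraries, so the groups lay far apart. The means were 0.944 ± 0.181 and 10.3 ± 0.726 FPKM (SD, n = 2), a 10.9-fold difference, and limma gave a log2 change of 2.53 ± 0.09 (SE, adjusted p = 6.88e-07). Of the exon bases of PTGS2, 4.0% overlap the antisense lncRNA PACERR, and reads of both genes may not have been separated there. PTGS1 (ENSG00000095303, chr9:122370530-122395703, plus strand) stayed below 1 FPKM in every library and was not tested. Its values were 0.554 and 0.48 FPKM in normal, 0.513 and 0.398 in normal with PM10, 0.395 and 0.326 in inflamed, and 0.352 and 0.353 in inflamed hIECs with PM10. Within a library, PTGS2 was 1.47 and 2.23 times the level of PTGS1 in normal hIECs and 27.3 and 29.9 times in inflamed hIECs, a ratio on which scaling between libraries has no bearing.

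PTGES (ENSG00000148344, chr9:129738331-129753042, minus strand) encodes microsomal prostaglandin E synthase, the inducible enzyme for prostaglandin E2. Its levels were 6.73 and 7.999 FPKM in the normal libraries and 28.04 and 29.6 FPKM in the inflamed libraries. The means of 7.36 ± 0.897 and 28.8 ± 1.11 FPKM (SD, n = 2) differed 3.91-fold, with a log2 change of 1.84 ± 0.08 (SE, adjusted p = 1.95e-06 by limma). PTGIS (ENSG00000124212, chr20:49503874-49568137, minus strand), the prostacyclin synthase, lay slightly lower with cytokines, at 7.59 and 8.93 FPKM in normal and 6.24 and 6.52 FPKM in inflamed hIECs. This change of -0.32 ± 0.09 (SE) was called at an adjusted p = 0.0168, but the call did not hold without normal replicate 2 (-0.22, adjusted p = 0.0755), without inflamed replicate 1 (-0.295, adjusted p = 0.0846) or after rescaling to TPM (-0.25, adjusted p = 0.0613). Of these 2 synthases, PTGIS was thus the more abundant in normal hIECs and PTGES in inflamed hIECs. The ratio of PTGES to PTGIS within a library was 0.887 and 0.896 in normal hIECs, 0.847 and 0.823 with PM10, 4.49 and 4.54 in inflamed hIECs and 4.34 and 4.92 in inflamed hIECs with PM10.

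PTGDS (ENSG00000107317, chr9:136975092-136981742, plus strand), which makes prostaglandin D2, was weakly expressed throughout. It had 0.481 and 0.693 FPKM in normal hIECs and 0.944 and 1.16 FPKM in normal hIECs with PM10, was listed at 0 in both inflamed libraries, and had 0.251 and 0.292 FPKM in inflamed hIECs with PM10. The gene did not reach the level needed for a test. When every gene above 0 in any library was fitted, both its cytokine comparisons were called and neither comparison of PM10 was (adjusted p = 0.0842 and 0.0836 by limma). Against inflamed libraries at 0, lower was the only possible direction, so the call without PM10 is a description. With PM10 in both arms the adjusted p-value was 0.00129, and the inflamed libraries lay near the lowest value above 0. With PM10 present, the mean was 3.87-fold lower with cytokines, and no fold is given against the inflamed group, which is at 0. Another protein-coding gene overlaps 23.4% of the PTGDS exon bases, so these values are uncertain.

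With PM10 in both arms, cytokines raised the same 2 enzymes by less. PTGS2 was 1.19 and 1.10 FPKM in normal hIECs with PM10 and 5.53 and 5.65 FPKM in inflamed hIECs with PM10, a 4.89-fold difference (log2 change 1.62, adjusted p = 4.63e-06 by limma). PTGES was 6.63 and 6.24 FPKM against 15.8 and 15.6 FPKM, or 2.44-fold (log2 change 1.17, adjusted p = 1.37e-05). PTGIS moved the other way, from 7.82 and 7.58 FPKM to 3.63 and 3.18 FPKM, which is 2.26-fold lower (log2 change -0.98, adjusted p = 5.55e-05).

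PM10 had different effects on the synthesis genes in inflamed and in normal cultures. In inflamed hIECs, PTGS2 fell by 0.77 (adjusted p = 0.00238), PTGES fell by 0.84 (adjusted p = 0.00127) and PTGIS fell by 0.75 (adjusted p = 0.00262) on the log2 scale. Their means were 1.83-, 1.84- and 1.87-fold lower. In normal hIECs the same genes changed by 0.14 (95% interval -0.07 to 0.35), -0.17 (-0.355 to 0.02) and -0.09 (-0.29 to 0.12), and limma called none of them (adjusted p = 0.324, 0.215 and 0.557). Without normal replicate 1, PTGES was also called lower in normal hIECs (-0.28, adjusted p = 0.0356). The difference between the 2 effects of PM10 was called for PTGS2 (-0.91 ± 0.13, SE, adjusted p = 0.00956), PTGES (-0.67 ± 0.11, adjusted p = 0.0197) and PTGIS (-0.66 ± 0.13, adjusted p = 0.028). For PTGES and PTGIS this call rested on all 6 libraries outside the normal group, since without any one of them the adjusted p-values were 0.0593 to 0.0822 and 0.0584 to 0.099.

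The receptors were the next question. PTGER3 (ENSG00000050628, chr1:70852353-71047816, minus strand) encodes the EP3 receptor, which couples mainly to inhibitory G proteins and lowers cAMP, and it is among the genes that the study itself picked from these libraries. Its levels were 5.29 and 5.99 FPKM in normal, 9.07 and 8.91 in normal with PM10, 2.05 and 1.61 in inflamed, and 0.4 and 0.355 in inflamed hIECs with PM10. No group overlapped another. Cytokines lowered the mean 3.09-fold without PM10 (log2 change -1.24 ± 0.10, SE, adjusted p = 3.74e-05) and 23.8-fold with PM10 (-2.86 ± 0.10, adjusted p = 4.17e-07), where the lower group lies near the lowest value above 0 in the files. PM10 moved PTGER3 in opposite directions in the 2 kinds of culture. The means were 1.59-fold higher in normal hIECs (0.59, adjusted p = 0.0152) and 4.83-fold lower in inflamed hIECs (-1.03, adjusted p = 0.00118), and the size of the interaction (-1.62 ± 0.14, SE, adjusted p = 0.00171) stood at percentile 99.7 of all genes tested. The rise in normal hIECs was not called without normal with PM10 replicate 1 (adjusted p = 0.0963) or replicate 2 (adjusted p = 0.0854), nor when only these 2 groups were fitted (adjusted p = 0.103).

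PTGER4 (ENSG00000171522, chr5:40679915-40693735, plus strand) and PTGER2 (ENSG00000125384, chr14:52314305-52328598, plus strand) encode EP4 and EP2, which couple to the stimulatory G protein and raise cAMP. PTGER4 had 1.29 and 0.953 FPKM in normal hIECs and 1.52 and 1.44 FPKM with PM10, against 2.88 and 2.40 FPKM in inflamed hIECs and 2.604 and 3.298 FPKM in inflamed hIECs with PM10. All 4 libraries with cytokines were above all 4 without. Cytokines raised PTGER4 2.36-fold without PM10 (log2 change 0.78, adjusted p = 0.00139 by limma) and 2.00-fold with PM10 (0.67, adjusted p = 0.00237). PM10 left it uncalled in normal hIECs (0.23, adjusted p = 0.264) and in inflamed hIECs (0.12, 95% interval -0.18 to 0.41, adjusted p = 0.561), and this interval does not show equal levels. PTGER2 had 0.67 and 0.624 FPKM in normal, 0.598 and 0.541 in normal with PM10, 1.32 and 1.26 in inflamed, and 0.964 and 0.996 in inflamed hIECs with PM10. It reached 1 FPKM only in the inflamed libraries without PM10 and entered the fit through them, so the difference of their mean from normal hIECs, 1.99-fold, is given as a description. With PM10 in both arms, a comparison of libraries that were all below 1 FPKM, it was called higher with cytokines (0.34, adjusted p = 0.0109). This call was lost without normal with PM10 replicate 2 (0.31, adjusted p = 0.0506). PM10 effects on PTGER2 were not called in inflamed hIECs (-0.21, adjusted p = 0.145) or in normal hIECs (-0.07, adjusted p = 0.631). PTGER1 (ENSG00000160951, chr19:14472466-14475354, minus strand), which encodes the calcium-raising EP1 receptor, was listed at 0 in all 8 libraries.

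The mix of prostaglandin E2 receptor RNA differed between groups. The summed FPKM of the 4 receptor genes was 7.25 and 7.56 in normal hIECs, 11.2 and 10.9 with PM10, 6.24 and 5.26 in inflamed hIECs and 3.97 and 4.65 in inflamed hIECs with PM10. PTGER3 made up 73.0% and 79.2% of that sum in the normal libraries and 81.1% and 81.8% with PM10. In inflamed hIECs its share was 32.7% and 30.5%, and in inflamed hIECs with PM10 it was 10.1% and 7.64%. PTGER4 went from 17.8% and 12.6% in normal hIECs to 46.1% and 45.6% in inflamed hIECs and 65.6% and 70.9% in inflamed hIECs with PM10. The ratio of PTGER4 to PTGER3 was below 1 in every library without cytokines, at 0.159 to 0.243, and above 1 in every library with cytokines, at 1.41 and 1.49 without PM10 and 6.51 and 9.29 with PM10. Between any 2 groups of 2 libraries an exact two-sided permutation p-value cannot be under 0.333, and no test was run on these sums, shares and ratios, which stand as a description.

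**Figure D2:**
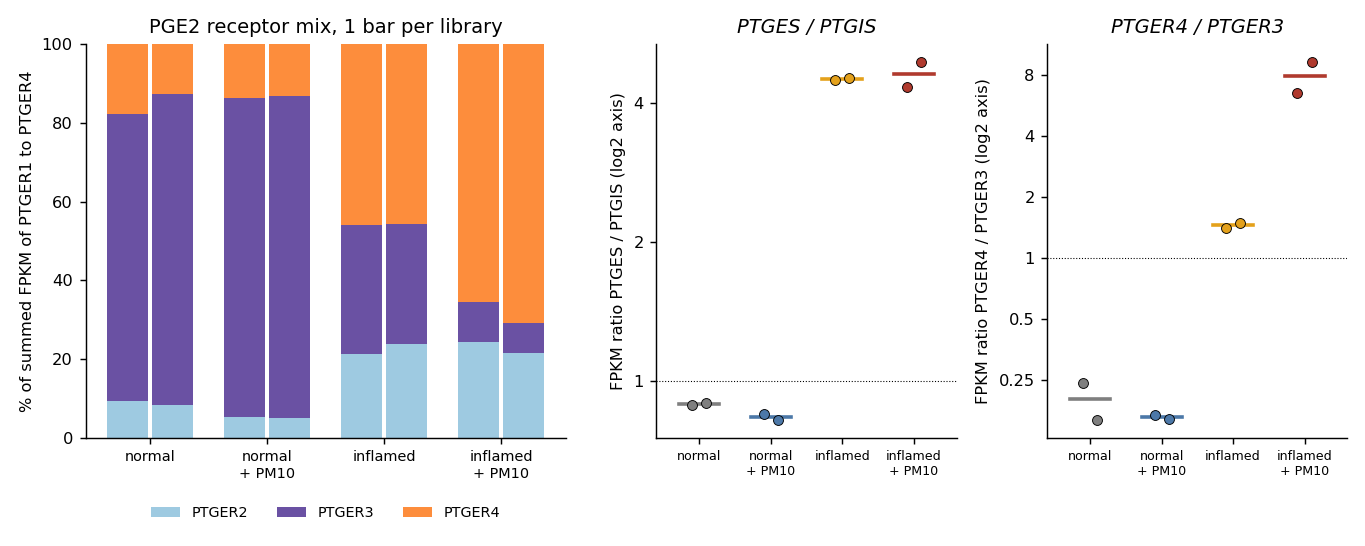
Left, share (% of summed FPKM) of each prostaglandin E2 receptor gene, 1 bar per library, with PTGER1 at 0 throughout. Middle and right, the FPKM ratios of PTGES to PTGIS and of PTGER4 to PTGER3 on log2 axes, with points for libraries, lines for means of 2 and a dotted line at a ratio of 1. PTGER3 falls from 73.0% to 81.8% of receptor FPKM without cytokines to 7.64% to 32.7% with them, and both ratios cross 1.

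HPGD (ENSG00000164120, chr4:174490175-174523154, minus strand) encodes the dehydrogenase that starts the breakdown of prostaglandin E2. It was at 1.04 and 0.823 FPKM in normal hIECs and 1.29 and 1.54 FPKM in normal hIECs with PM10, and it was listed at 0 in all 4 libraries with cytokines. No fold is given because the lower groups are at 0. HPGD reached 1 FPKM only in libraries without cytokines and entered the fit through them, so its direction was fixed by the choice of genes tested, and its 2 calls as lower with cytokines are a description. The 1.52-fold higher mean with PM10 in normal hIECs was not called (log2 change 0.325, adjusted p = 0.0997). An antisense lncRNA overlaps 5.7% of its exon bases.

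Across the 7 genes tested, cytokines without PM10 gave 7 calls, 4 higher and 3 lower, where 56.2% of all genes tested were called, 25.9% higher and 30.3% lower. With PM10 in both arms there were again 4 higher and 3 lower, against 65.4% of all genes tested, 25.8% higher and 39.6% lower. Calls were thus common among all genes, and 2 of the 7 genes (PTGER2 and HPGD) had entered the fit through the libraries where they were high, so these counts are a description. PM10 in inflamed hIECs gave 4 lower calls (PTGS2, PTGES, PTGIS and PTGER3), against 15.2% of all genes called and 9.02% called lower (6.22% higher). The interaction was called for the same 4 genes, all negative, against 6.6% of all genes and 4.48% negative (2.11% positive). PM10 in normal hIECs gave 1 call, PTGER3, against 9.23% of all genes and 5.51% higher (3.72% lower). These comparisons share libraries, since each group enters more than 1 of them.

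**Figure D3:**
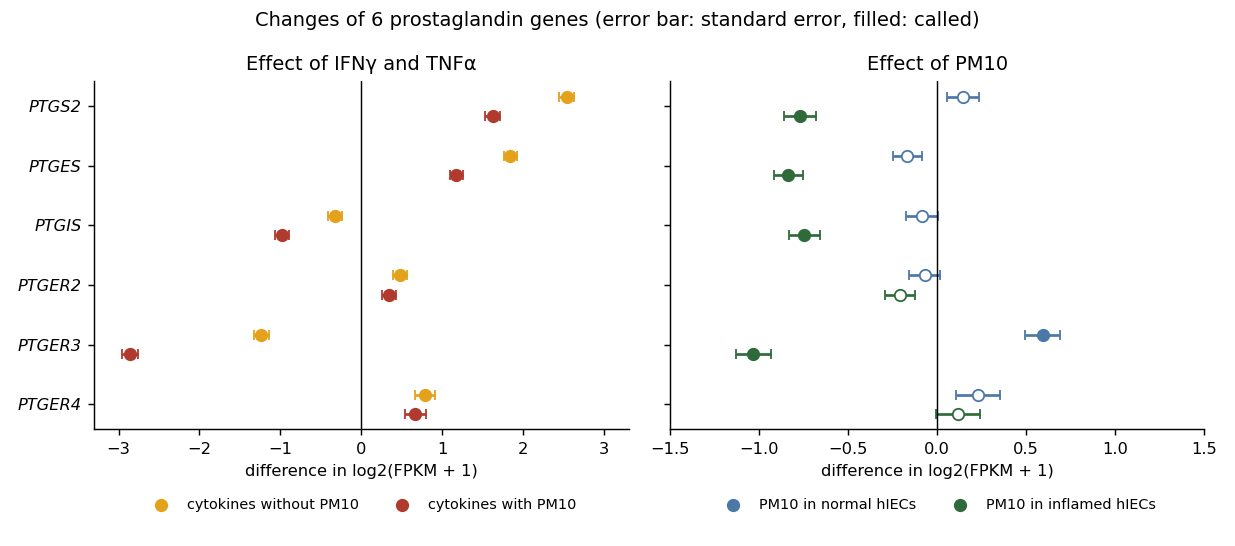
Difference in log2(FPKM + 1) (horizontal axes) for 6 of the 7 genes tested, left for cytokines without and with PM10 and right for PM10 in normal and in inflamed hIECs. Error bars are standard errors from limma and filled points are called. HPGD is left out because it was listed at 0 with cytokines, and PTGER2 entered the fit only through inflamed libraries. PTGER3 lies at 0.59 in normal and -1.03 in inflamed hIECs with PM10, on opposite sides of 0.

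Levels of the 10 genes in normal hIECs ran from PTGIS and PTGES, whose libraries overlapped, through PTGER3 to PTGER4, PTGS2 and HPGD, whose libraries overlapped around 1 FPKM. PTGER2, PTGDS and PTGS1 followed between 0.48 and 0.693 FPKM, with PTGDS overlapping both others, and PTGER1 was at 0. In normal hIECs with PM10 the order was PTGER3, PTGIS and PTGES without overlap, then PTGER4 with HPGD and PTGS2 with PTGDS as overlapping pairs, then PTGER2 and PTGS1. In inflamed hIECs it was PTGES, PTGS2, PTGIS, PTGER4, PTGER3, PTGER2 and PTGS1, with no overlap between neighbours, and PTGDS, HPGD and PTGER1 at 0. With PM10 added, PTGES and PTGS2 again came first, PTGIS and PTGER4 overlapped, and PTGER2, PTGER3, PTGS1 and PTGDS followed in that order below 1 FPKM.

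Other genes of the pathway were counted in lists, and PTGS2 and PTGES were set beside the enzymes that act before and after them. Of 22 genes that release arachidonic acid or regulate its release, 10 were listed at 0 in all libraries and 10 were tested. With cytokines without PM10, 6 of the 10 were called higher and 3 lower, where 25.9% of all genes tested were called higher and 30.3% lower, and the median change was 0.62 against -0.03 over all genes. Of these calls FAAH and PLA2G4C had entered the fit only through the libraries where they were high. The 4 with the largest change included PLAAT4, a phospholipase and acyltransferase (1.86 and 2.67 FPKM in normal, 33.8 and 33.9 in inflamed hIECs, log2 change 3.43, adjusted p = 5.03e-07), and PLAAT3 of the same family (1.81, adjusted p = 1.12e-05). The others were FAAH, the fatty acid amide hydrolase, at 2.8 to 3.34 FPKM without cytokines and 0 to 0.321 FPKM with them, and the cytosolic phospholipase PLA2G4C, at 0.278 to 0.358 FPKM without and 1.72 to 3.02 FPKM with cytokines. PLA2G4A, the main cytosolic phospholipase of prostaglandin synthesis, had 2.56 and 2.66 FPKM in normal and 6.55 and 6.16 FPKM in inflamed hIECs (1.03, adjusted p = 2.51e-05). The secreted phospholipase PLA2G2A was listed at 0 in all libraries.

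PM10 moved genes of arachidonic acid release in both directions in inflamed hIECs, where 6.22% of all genes tested were called higher and 9.02% lower. In normal hIECs it gave 0 calls among the 10 tested, which is near the 9.23% called over all genes. MGLL there gave -0.32 (adjusted p = 0.0509 by limma). With PM10 in inflamed hIECs, PLAAT4 fell by 0.75 (adjusted p = 0.00684 by limma), to 20.4 and 19.2 FPKM. ANXA1, an inhibitor of phospholipase A2, fell by 0.175 (adjusted p = 0.0428) in the same comparison. MGLL, which frees arachidonic acid from an endocannabinoid, rose there by 0.61 (adjusted p = 0.00363), from 3.75 and 3.93 FPKM to 6.14 and 6.64 FPKM. The lysosomal phospholipase PLA2G15 also rose in inflamed hIECs, by 0.38 (adjusted p = 0.00622). The interaction was called for PLAAT4 (-0.68, adjusted p = 0.0497) and in the other direction for MGLL (0.93, adjusted p = 0.00619).

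Of 13 genes of other prostanoid synthases, HPGDS was listed at 0 in all libraries and 11 were tested. With cytokines without PM10, 2 were called higher and 7 lower, against 25.9% and 30.3% of all genes tested, and the median was -0.39 against -0.03. The 4 with the largest change included AKR1C3 (-1.87, adjusted p = 9.49e-05) and GSTM2 (-1.01, adjusted p = 1.87e-05). The others, AKR1C2 at 2.17 to 3.76 FPKM without cytokines and 0.284 to 0.469 FPKM with them and AKR1C1 at 0.958 to 2.02 FPKM without and 0 to 0.306 FPKM with them, had entered the fit only through libraries without cytokines, so their calls were fixed in direction. AKR1C3 makes prostaglandin F2 alpha and also reduces steroids. AKR1C and GSTM genes have near-identical copies between which reads can be split, so their values are uncertain. PTGES2 and PTGES3, the other prostaglandin E synthases, gave -0.39 (adjusted p = 0.00407) and 0.20 (adjusted p = 0.0482), both smaller in size than the 1.84 of PTGES. PTGES2 had 24.6 and 25.7 FPKM in normal and 17.5 and 20.4 FPKM in inflamed hIECs. PTGES3 had 76.5 and 65.0 FPKM in normal and 80.6 and 81.9 FPKM in inflamed hIECs, above PTGES in both groups. With PM10 in inflamed hIECs, GSTM2 fell by 0.27 (adjusted p = 0.0412) and PRXL2B, a prostaglandin F synthase, rose by 0.25 (adjusted p = 0.0384). With PM10 in normal hIECs, AKR1C2 rose by 0.46 (adjusted p = 0.041) and CBR3 fell by 0.59 (adjusted p = 0.0247).

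Of 6 other prostanoid receptor genes, PTGDR and PTGDR2, the prostaglandin D2 receptors, were listed at 0 in all libraries, and 3 were tested. PTGIR encodes the receptor for prostacyclin, the product of PTGIS. It had 11.6 and 12.96 FPKM in normal, 12.9 and 14.1 in normal with PM10, 9.07 and 9.71 in inflamed, and 5.37 and 4.97 in inflamed hIECs with PM10. As for PTGIS, the lowest 2 libraries were those with cytokines and PM10. Cytokines lowered PTGIR without PM10 (-0.35, adjusted p = 0.00746 by limma) and with PM10 (-1.23, adjusted p = 1.01e-05). PM10 in inflamed hIECs lowered it too (-0.75, adjusted p = 0.00174), and the interaction was -0.88 (adjusted p = 0.00748). PTGFR, the prostaglandin F receptor, had 1.13 to 1.77 FPKM without cytokines, through which alone it entered the fit, and 0 to 0.317 FPKM with them. PTGFRN, which binds that receptor, rose with cytokines without PM10 by 0.22 (adjusted p = 0.0124), with PM10 in normal hIECs by 0.35 (adjusted p = 0.015) and with PM10 in inflamed hIECs by 0.21 (adjusted p = 0.0488).

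Of 14 genes of transport and later breakdown, 7 were tested, and 2 fell with cytokines without PM10 (30.3% of all genes tested were called lower), with a median of 0.16. ABCC4, an exporter of prostaglandins, was higher by 0.97 (adjusted p = 5.28e-05 by limma). ZADH2, a prostaglandin reductase, fell by 0.36 (adjusted p = 0.00777), and the peroxisomal enzyme HSD17B4 fell by 0.17 (adjusted p = 0.0154). PTGR2 gave 0.22 (adjusted p = 0.0876), with 35.0% of its exon bases shared with other genes. With PM10 in inflamed hIECs, HSD17B4 fell by 0.26 (adjusted p = 0.0114) and PTGR1, a reductase that acts after HPGD, rose by 0.28 (adjusted p = 0.0443).

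The lipoxygenase and leukotriene branch also uses arachidonic acid. ALOX5 and ALOX15, its best known oxygenases, were listed at 0 in all libraries, and 8 genes were tested. With cytokines without PM10 the leukotriene B4 receptor LTB4R was the 1 gene called (0.565, adjusted p = 0.00324), and the median was 0.12. In this comparison 56.2% of all genes tested were called, 25.9% higher and 30.3% lower, so calls were less common in this list. PM10 in inflamed hIECs, where 9.02% of all genes tested were called lower, lowered LTB4R (-0.405, adjusted p = 0.0454), OXER1 (-0.44, adjusted p = 0.013) and GGT5 (-0.37, adjusted p = 0.0315). The interaction was called for LTB4R (-0.73, adjusted p = 0.0351). In normal hIECs PM10 lowered GGT5 (-0.73, adjusted p = 0.00513). ALOX5AP gave 0.27 (adjusted p = 0.0949) with cytokines without PM10, and GGT1, given in 2 overlapping rows, was not called in either.

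Among 27 tested signalling partners of the prostaglandin E2 receptors, 3 were called higher and 6 lower with cytokines without PM10, with a median of -0.01. Of all genes tested 56.2% were called in this comparison, 25.9% higher and 30.3% lower, so calls were no more common among the signalling partners. GNAO1, an inhibitory G protein subunit, had 3.29 and 3.42 FPKM in normal, 3.43 and 2.66 in normal with PM10, 0.258 and 0.56 in inflamed, and 2.37 and 2.33 in inflamed hIECs with PM10. Its lowest 2 libraries were those of inflamed hIECs without PM10. GNAO1 fell with cytokines (-1.64, adjusted p = 3.96e-05) and rose with PM10 in inflamed hIECs (1.26, adjusted p = 0.00153), with an interaction of 1.37 (adjusted p = 0.00862), a direction opposite to that of PTGER3. PRKAR1B, a regulatory subunit of protein kinase A, fell with cytokines (-1.29, adjusted p = 9.75e-06). GNAS, the stimulatory G protein subunit through which EP2 and EP4 act, fell by 0.86 (adjusted p = 0.000556) from 898.4 and 729.0 FPKM to 402.7 and 490.5 FPKM. GNAI1, an inhibitory subunit, fell by 0.74 (adjusted p = 0.000431), whereas GNAI2, the more abundant inhibitory subunit at 122.1 and 123.9 FPKM in normal hIECs, rose by 0.45 (adjusted p = 6.76e-05).

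With PM10 in inflamed hIECs, 6 of the 27 signalling partners rose and 0 fell, where 6.22% of all genes tested were called higher and 9.02% lower, and the median was 0.14 against -0.01 over all genes tested. Beside GNAO1, these were GNAI2, GNA11, PRKAR1A, ADCY6 and PRKAR2A, which rose by 0.16 to 0.285. In normal hIECs PM10 raised the adenylyl cyclase gene ADCY6 by 0.385 (adjusted p = 0.0194) and lowered ADCY7 (-0.565, adjusted p = 0.0334). The interaction was also called for ADCY7 (0.91, adjusted p = 0.0277). ADCY7 reached 1 FPKM only in normal hIECs (1.468 and 1.404) and in inflamed hIECs with PM10 (1.269 and 1.405). It entered the fit through these libraries, which fixed the direction of its fall and of its interaction, so both are a description.

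**Figure D4:**
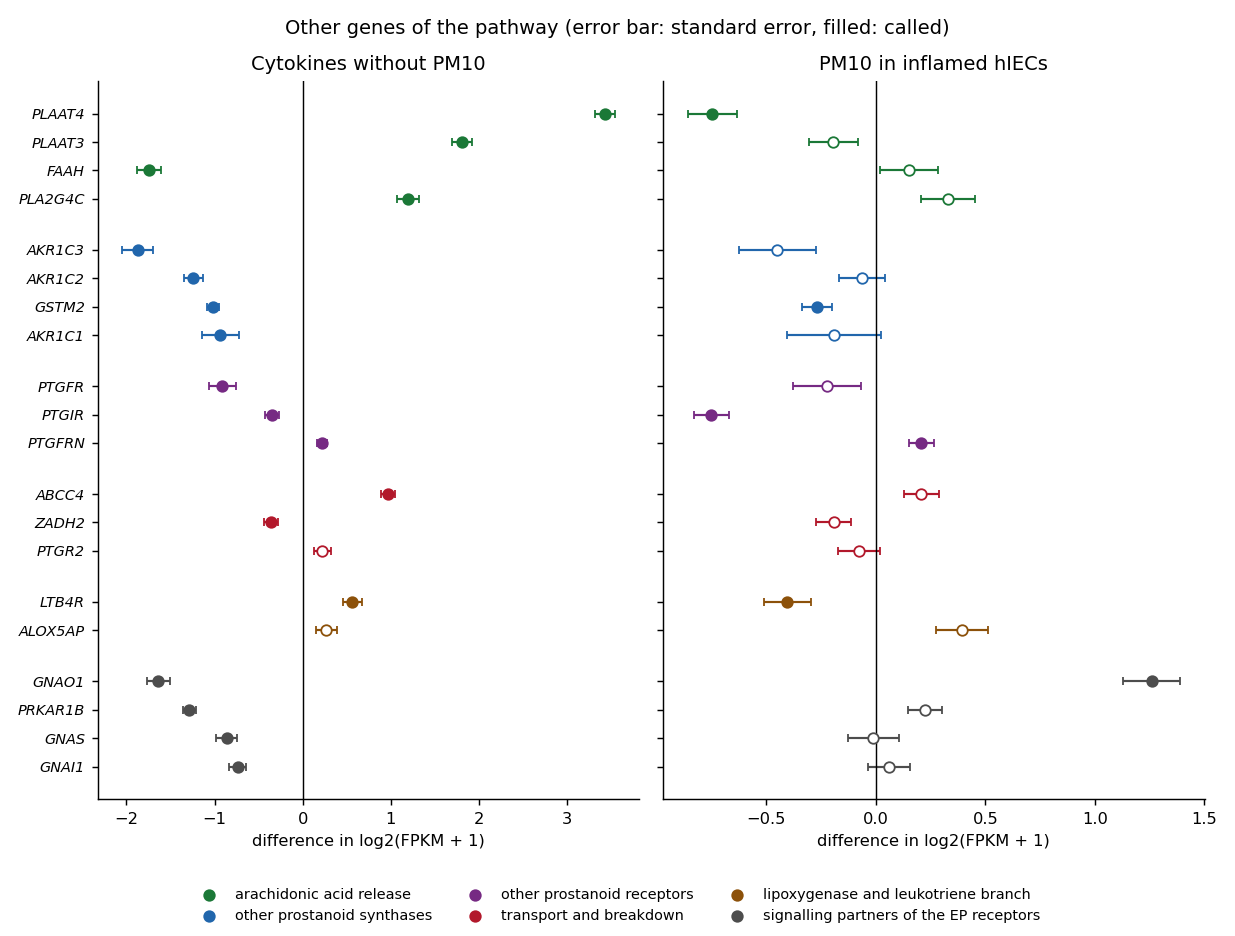
Difference in log2(FPKM + 1) (horizontal axes) for named genes of 6 pathway lists, left for cytokines without PM10 and right for PM10 in inflamed hIECs, on axes of different range. Error bars are standard errors from limma, filled points are called and colours mark the lists. PLAAT4 is highest on the left at 3.43 and GNAO1 is highest on the right at 1.26, and GGT1 is left out because its 2 rows overlap. FAAH, PLA2G4C, AKR1C2, AKR1C1 and PTGFR reached 1 FPKM only without or only with cytokines, which fixed the direction of their points on the left.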

How the data were processed

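RNA-seq of 8 libraries was used. Per the study's methods, RNA with an integrity number above 7.5 was made into TruSeq libraries and sequenced with paired ends of 100 bases. Reads were freed of adapters (Cutadapt), trimmed (Sickle) and aligned to GRCh38 (HISAT2), and the authors estimated expression with StringTie. The authors deposited FPKM per gene and library, with no scaling between libraries beyond it. The annotation release is not given in the sources used here. GENCODE 44, in which 99.5% of gene identifiers were found, gave positions and overlaps. FPKM carries no counts, so limma 3.58.1 (R 4.3.3, variance trend) was fitted to log2(FPKM + 1) of the 14206 genes that reached 1 FPKM in 2 or more libraries, over all 8 libraries, with two-sided tests and Benjamini-Hochberg adjustment within each of 5 comparisons. The fit was tested on simulated data. Alternatives covered the pseudocount, filters, scaling, trend, groups fitted, a replicate block and each library left out. The 10 genes are all described. Of each pathway list the 4 tested genes with the largest absolute change with cytokines without PM10 are named, and the genes most like a member are the 3 with the highest Pearson's r, for members whose group means differ by at least 1 on the log2 scale. PACERR, GNAI2, PLA2G4A, PTGES2, PTGES3, other list members behind a count of 5 or fewer and genes named as listed at 0 were chosen after their values were seen. Some results are not reported here. The members and lists were chosen with earlier results of these data known. Tables and plots used Python 3.11.15, pandas 2.3.3, numpy 2.4.6 and matplotlib 3.10.9.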

Additional observations from a re-analysis of the deposited data

Results flagged for a closer look

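For 4 genes the effect of PM10 differed between inflamed and normal hIECs by limma's test of the interaction, on the log2(FPKM + 1) scale. Over all genes tested, 6.6% were called in this comparison and 4.48% were called negative. The difference was -0.91 for PTGS2, -0.67 for PTGES, -0.66 for PTGIS and -1.62 for PTGER3, with adjusted p-values of 0.00956, 0.0197, 0.028 and 0.00171. The calls of PTGES and PTGIS did not hold when any one library outside the normal group was left out. PTGS2, PTGES and PTGIS were called lower with PM10 in inflamed hIECs, and in normal hIECs none of the 3 was called. PTGER3 was higher with PM10 in both normal libraries and lower in both inflamed libraries.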

How the results depend on the processing

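The 4 genes called for PM10 in inflamed hIECs numbered 4 under all 18 alternatives. Cytokine calls numbered 7 in each comparison and 5 to 8 under alternatives. There were 5 at a mean of at least 1 FPKM, where PTGER2 and HPGD were not tested, and 8 with no filter. The call added with no filter was PTGDS, whose direction was fixed where the inflamed libraries were at 0. For PM10 in normal hIECs, the 1 call became 0 with only those groups fitted and 0 to 2 with each library left out. The 4 interaction calls became 2 to 4 with each library left out and 3 under quantile normalization, where PTGIS was lost (adjusted p = 0.0659). Directions turned only for uncalled values. With each library left out, PTGIS with PM10 in normal hIECs ranged from -0.191 to 0.019 (positive without normal replicate 2), PTGER4 with PM10 in inflamed hIECs from -0.01 (without inflamed with PM10 replicate 2) to 0.244, and the PTGER4 interaction from -0.24 to 0.014, positive without normal replicate 2 (0.001) or inflamed with PM10 replicate 1 (0.014). Over all genes, 1311 calls for PM10 in normal hIECs became 23 with only those groups fitted, 481 under TPM and 194 to 2627 with a library left out. For PM10 in inflamed hIECs 2165 became 1250 under TPM and 675 to 2992, and for the interaction 937 became 450 and 263 to 1266. Scaling moved the share of lower calls from 40.3% to 57.1% for PM10 in normal hIECs (median centring), from 59.2% to 49.2% in inflamed hIECs (quantile), from 68% to 53.4% for the interaction (quantile) and from 53.9% to 43.6% for cytokines without PM10 (TPM). The cause of these shifts was not tested. With the replicate number as a block the gene counts were 1, 7, 7, 4 and 4, as without it. Deviations of same-numbered libraries correlated at -0.002 to 0.079, so no large deviation was shared by number. Such correlations cannot settle whether the libraries were paired. FPKM gives no depth, and a 0 cannot be told from a level under 0.164 to 0.228 FPKM.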

Other observations

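The genes whose log2(FPKM + 1) most resembled that of a prostaglandin gene over the 8 libraries are given as a description, since the points share 4 groups and carry no test. PTGS2 was most like PLA1A, a phosphatidylserine phospholipase (Pearson's r = 0.9965), HLA-DRB5 (0.9957) and BDKRB2, the bradykinin B2 receptor (0.9947), and 21 genes exceeded 0.99. PTGES was most like EMILIN1 (0.9972), the cytokine IL6 (0.9961) and COCH (0.9941), with 7 genes over 0.99. PTGIS was most like AC009022.1 (0.9965), the kinase PIM1 (0.996) and AC073857.1 (0.9934), with 3 genes over 0.99. PTGER3 was most like C1QTNF6 (0.9973), SH3GL1 (0.9964) and the matrix gene MXRA5 (0.9958), with 26 genes over 0.99. HPGD, which was at 0 in all 4 libraries with cytokines, was most like CCDC195 (0.9993), VEGFB (0.9988) and GDAP1L1 (0.9986), with 103 genes over 0.99.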
